A study of Drosophila melanogaster with 3 samples.

Results

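The genes described are 37 nuclear genes that encode subunits of respiratory complexes II, III and IV, cytochrome c and ATP synthase (complex V), out of 13968 protein-coding genes on the chromosome arms of *Drosophila melanogaster*. They were taken by name from a list of subunits, and all 37 symbols were found in the gene annotation. The series mapped where the transcription factor Ets97D sits on embryo chromatin, by immunoprecipitation and sequencing (ChIP-seq). The flies, of the strain Delg-GFP, stably express Ets97D with GFP fused to its C terminus, so the tagged protein was mapped through a GFP antibody rather than the untagged one; the antibody field of the labels names Ets97D itself. There was 1 group, whole embryos of mixed sex aged 0 to 24 h, in 3 biological replicates. No conditions could be compared, and every cell type of the embryo contributed to each value.

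Oxidative phosphorylation takes place in the inner mitochondrial membrane. Complex II (succinate dehydrogenase) passes electrons from succinate to ubiquinone, complex III passes them on to cytochrome c, and complex IV (cytochrome c oxidase) passes them to oxygen. ATP synthase uses the proton gradient that is built along the way to make ATP. Ets97D, also called Delg, is the Drosophila counterpart of GABP alpha in mammals (NRF-2), a factor named for its action on nuclear genes of the respiratory chain. ETS factors bind DNA words built around GGAA.

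The sequences below carry the promoter words found under or near the members' summits, the points of highest signal in a region. They come from the NCBI RefSeq Release 6 genome (dm6) and run 5' to 3' along the strand of the gene. TATCGATA is the DNA replication-related element (DRE), the site of the factor DREF, and it holds CGATA, the core that the insulator protein BEAF-32 binds, on both strands. GGTCACAC is the core promoter element Motif 1. Capitals mark the DRE in ATPsynE (chr3R:14327039-14327068, plus strand), SdhC (chr3R:11210143-11210243, minus strand), UQCR-14 (chrX:16286223-16286252, plus strand) and COX7A (chr3R:8341014-8341099, minus strand). In SdhC the DRE is at -319 bp (upstream) from the start site, in a peak whose summit is nearer to the start site of Tctp. Capitals also mark Motif 1, read on the other strand, in UQCR-C2 (chr3L:16584232-16584261, plus strand). COX6B (chrX:19744334-19744434, minus strand) and ATPsynC (chr3R:31219621-31219721, minus strand, word on the other strand) are shown with the BEAF-32 core in capitals because they have the strongest peaks of their groups. COX4 (chr2L:19958601-19958668, plus strand) is shown because its promoter holds both the DRE and Motif 1 without an optimal peak. These last 3 were chosen after their values were seen, and windows are shortened where they hold annotated transcribed sequence. The ATPsynE, UQCR-14 and UQCR-C2 stretches lie wholly within such sequence.
ATPsynE: accaatacaacTATCGATAgccgcctgtca
SdhC: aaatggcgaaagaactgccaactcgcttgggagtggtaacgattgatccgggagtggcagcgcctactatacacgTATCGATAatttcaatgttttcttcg
UQCR-14: ataTATCGATAggtgcagtgtgtctgtatt
COX7A: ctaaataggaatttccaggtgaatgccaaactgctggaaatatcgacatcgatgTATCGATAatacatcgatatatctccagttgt
UQCR-C2: gctggtactcgGTGTGACCattttggagcg
COX6B: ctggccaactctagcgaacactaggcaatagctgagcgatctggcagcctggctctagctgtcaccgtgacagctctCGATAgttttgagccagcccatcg
ATPsynC: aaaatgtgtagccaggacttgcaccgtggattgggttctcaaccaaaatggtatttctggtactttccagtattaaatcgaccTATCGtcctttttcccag
COX4: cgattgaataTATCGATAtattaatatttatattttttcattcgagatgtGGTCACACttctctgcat

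Peaks came as deposited lists of regions on dm6, each with the authors' signal. The optimal set, 5595 peaks that passed the authors' reproducibility filter (IDR), went down to a signal of 89.1, and the pooled list of peaks and background held 27625 regions. The replicates had lists of 24391, 28843 and 29122 regions. The 5595 highest-signal regions of a replicate are called its strongest set, and relative signal is a region's signal divided by the median of that set (52.4, 53.2 and 60.6 in replicates 1, 2 and 3). A promoter peak is a peak whose summit lies within 500 bp of an annotated transcription start site (TSS) of the gene. Read depth is unknown, so no counting error can be given.

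Most of the subunit genes carried Ets97D-eGFP at the promoter. An optimal promoter peak was present at 30 of the 37 genes (81.1%), against 36.5% of all protein-coding genes. Strongest-set regions were present at 31 genes (83.8%) in replicate 1, against 35.6% of all genes. The counts were 30 (81.1%) in replicate 2, against 36.6%, and 28 (75.7%) in replicate 3, against 34.7%. In all 3 replicates together 26 of the 37 (70.3%) had one, against 29.7% of all genes. With any region of the pooled list, background included, all 37 met the same distance rule, against 59.0% of all genes. No test was run on these shares, since genes are not replicates and the series has 1 group.

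Each complex had peaks at most of its genes. Complex II had a peak at 3 of 4 genes, complex III at 7 of 9, cytochrome c at its 1 gene and complex IV at 8 of 9. Of the ATP synthase genes, the catalytic F1 part had 4 of 6 and the stalk, membrane part and ring 7 of 8. Assembly factors, which help build the complexes without being part of them, had a peak at 9 of 15 genes (60%). Genes named as paralogs of the subunits had a peak at 1 of 19 (5.26%). Complex I, the remaining respiratory complex, had 24 of 40 (60%), or 24 of 34 (70.6%) without the genes whose names end in L or in L and a digit. The subunit list was not cut in this way. ATPsynepsilonL, whose name ends in L and which had no optimal peak, is counted there and not among the paralogs.

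**Figure D1:**
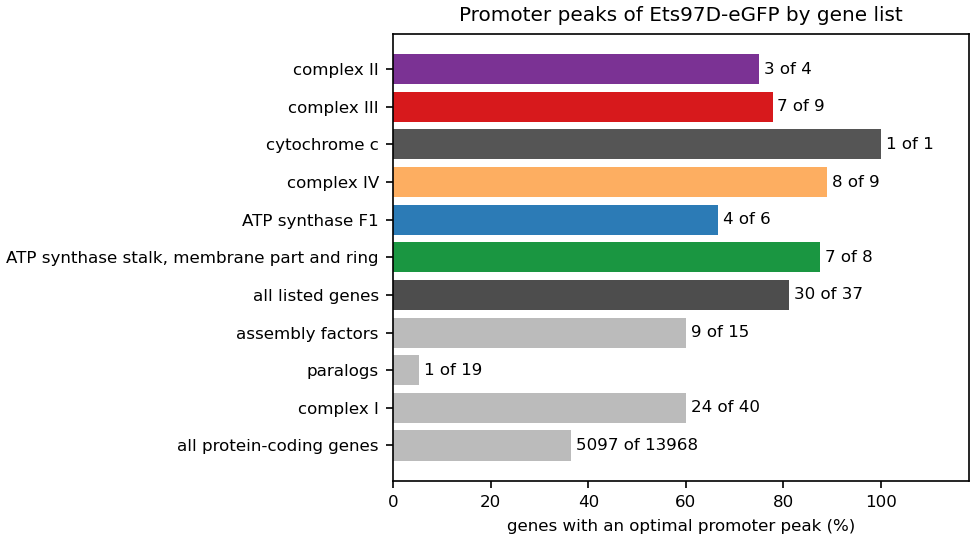
Bars give the percentage of genes in each list with an optimal promoter peak of Ets97D-eGFP, from 0, with the count beside each bar. The subunit lists run from 66.7% at ATP synthase F1 to 100% at the single cytochrome c gene, the paralogs stand at 5.26% and all protein-coding genes at 36.5%.

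The 30 peaks were of moderate strength, with a median above that of all bound genes. Their median signal was 229 (quartiles 167 and 354) and their median rank 1598 in the optimal set. All 5097 genes with an optimal promoter peak had a median signal of 188 (quartiles 132 and 282) and a median rank of 2220. Among members with a strongest-set region, the median relative signal was 1.39, 1.46 and 1.40 in replicates 1, 2 and 3, a mean of 1.41 ± 0.0350 (SD, n = 3). All protein-coding genes with such a region had medians of 1.18, 1.15 and 1.16, a mean of 1.16 ± 0.0165 (SD, n = 3). The 3 values of the listed genes lay above the 3 values of all genes, and the gap exceeded the spread between replicates. The same holds for the median rank within the strongest set, 1641, 1522 and 1616.5 for the listed genes, against 2161.5, 2215 and 2239 for all genes. The spread between replicates does not measure how far such medians vary with the choice of genes, which was not tested.

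Complex II peaks had signals from 102 to 336, in the lower part of the range of the 30 peaks (102 to 715). SdhC (FBgn0037873), a membrane anchor of succinate dehydrogenase, had the strongest peak of the complex, with a signal of 336 at chr3R:11210045-11210301 (rank 736). The relative signal of SdhC was 1.86, 2.44 and 2.10 in replicates 1, 2 and 3 (mean 2.13 ± 0.288, SD, n = 3). The summit lay 344 bp upstream of the SdhC start site and 54 bp from that of Tctp, so the peak serves as a promoter peak of both genes by the distance used. SdhB (FBgn0014028), the iron-sulfur subunit, had a signal of 164 at chr2R:6807371-6807820, with the summit at -30 bp. In relative terms SdhB stood at 1.14, 0.812 and 1.04 in replicates 1, 2 and 3 (0.998 ± 0.169), near the median of each strongest set. SdhD (FBgn0039112), the other membrane anchor, had a signal of 102 at rank 4891, with a summit at -23 bp. SdhD had relative signals of 0.659, 0.639 and 0.625 (0.641 ± 0.0170), the smallest coefficient of variation of the 30 peaks (2.66%). The 3 values of SdhC lay above those of SdhB, and those of SdhB above those of SdhD, with no overlap.

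SdhA (FBgn0261439), the flavoprotein that oxidises succinate, was the complex II gene with no optimal peak. Its pooled region, at chr2R:19395877-19396326 with the summit at -131 bp, had a signal of 79.8 and ranked 6216, outside the optimal set but near its end. The relative signal was 0.652 in replicate 1, where it was in the strongest set, 0.289 in replicate 2 and 0.554 in replicate 3 (0.499 ± 0.188). The replicates thus placed SdhA on both sides of the threshold. The nearest optimal summit was 856 bp away.

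Complex III held both strong and weak promoters. ox (FBgn0011227, oxen), a small subunit, had a signal of 594 at chr2R:12757433-12757711 and ranked 252, with the summit at -43 bp. Replicates 1, 2 and 3 gave ox a relative signal of 3.52, 2.87 and 4.16 (3.52 ± 0.645). Its start site lies beside that of Dgkepsilon, a diacylglycerol kinase, which was nearer to the summit at 26 bp. RFeSP (FBgn0021906), the Rieske iron-sulfur protein that takes electrons from ubiquinol, had a signal of 360 at chr2L:1614128-1614367. The summit was at -99 bp and no other gene's TSS lay within 500 bp. RFeSP had relative signals of 2.15, 2.29 and 2.11 (2.18 ± 0.0926), below every replicate of ox. RFeSP and ox were thus apart in all 3 replicates, which is a difference between 2 genes and not between kinds of subunit. The small subunits UQCR-14 and UQCR-Q had means of 1.91 and 1.70, below that of RFeSP.

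The other complex III subunits followed in order of signal. UQCR-14 had a signal of 320 and a relative signal of 1.91 ± 0.309 (SD, n = 3), and UQCR-Q, which shares its peak with CG46525, had 284 and 1.70 ± 0.394. Both are small subunits with no redox centre. The core proteins, which face the matrix, had lower means. UQCR-C2 had a signal of 185 and a relative signal of 1.08 ± 0.278, and UQCR-C1, shared with CycC, had 130 and 0.685 ± 0.186. UQCR-11 (FBgn0260008), the relative of the mammalian hinge protein, had a signal of 103 at rank 4836. UQCR-11 had relative signals of 0.760, 0.687 and 0.491, the value in replicate 3 falling outside the strongest set. UQCR-11 and SdhD are the 2 members nearest the end of the optimal set on its inner side, and SdhA at 79.8 and COX4 at 72.7 are nearest on its outer side.

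Cyt-c1 and UQCR-6.4 were the complex III genes with no optimal peak. Cyt-c1 (FBgn0035600), the subunit that hands electrons to cytochrome c, had a pooled signal of 55.7 with the summit at 30 bp, inside its 5' UTR. There was no region in replicate 1, and the relative signal was 0.344 in replicate 2 and 0.278 in replicate 3. UQCR-6.4 (FBgn0034245), a small subunit, had a pooled signal of 54.4 at -8 bp and relative signals of 0.241, 0.481 and 0.315. In replicate 1 its region was another one, with the summit at 326 bp. Neither gene had a strongest-set region in any replicate, and the nearest optimal summits were 4633 bp and 4005 bp away.

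Cyt-c-p (FBgn0284248) encodes the cytochrome c of most tissues, the mobile carrier between complexes III and IV. Its stronger peak had a signal of 249 at chr2L:16719559-16720008 (rank 1350), with the summit at -148 bp. A further optimal peak with a signal of 99.5 had its summit at 51 bp. The relative signal was 1.63, 1.32 and 1.71 in replicates 1, 2 and 3 (1.56 ± 0.203), with the strongest summit at -210, -142 and -11 bp. The summit was closest to the TSS in replicate 3. The paralog Cyt-c-d, which serves spermatogenesis, also had an optimal peak, with a signal of 305. That summit lay at 350 bp from the Cyt-c-d TSS, nearer to the TSS of CG31808.

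Complex IV had the strongest peak of the 37 genes. COX6B (FBgn0031066), a subunit on the intermembrane side of cytochrome c oxidase, had a signal of 715 at chrX:19744219-19744539 and ranked 207, with the summit at -49 bp. The replicates gave COX6B relative signals of 4.26, 4.11 and 4.47 (4.28 ± 0.177). The TSSs of CG33932, CG18809 and Rpp20 lay within 500 bp of the same summit, that of CG33932 at 47 bp. COX5A (FBgn0019624), a matrix-side subunit, had a signal of 483 at chr3R:11819397-11819672 with the summit at -44 bp, shared with glo. COX5A had relative signals of 3.71, 2.62 and 2.69 (3.00 ± 0.611). All 3 values of COX5A lay below those of COX6B.

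Several other complex IV peaks lay nearer to a neighbour's start site than to the subunit's own. COX5B, a matrix-side subunit, had a signal of 289 with the summit at -260 bp, 38 bp from the TSS of IFT52. cype, the fly relative of the small mammalian subunit 6c, had 265 at -496 bp, close to the limit of 500 bp and 48 bp from the TSS of Ncoa6. levy, the relative of subunit 6a, had a peak of 255 at -168 bp, 80 bp from the TSS of wmd, and a weaker one of 143 at 37 bp. COX7C, a small membrane subunit, had 136 at 305 bp, in an intron of its own gene and 39 bp from the TSS of oys. For COX5B, cype and COX7C there was no optimal summit closer to the subunit's own start.

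COX7A, COX8 and COX4 complete the complex. COX7A, a small subunit whose start lies by that of Arl2, had a signal of 188 with the summit at -7 bp. In relative terms COX7A stood at 0.777, 1.59 and 1.16 in replicates 1, 2 and 3, a coefficient of variation of 34.6%. COX8, which shares its peak with VhaM9.7-b, had 176 and a relative signal of 1.11 ± 0.115 (SD, n = 3). COX4 (FBgn0032833), a large nuclear-encoded subunit, was the complex IV gene with no optimal peak. Its pooled region at chr2L:19958496-19958945 had a signal of 72.7 (rank 6813), with the summit at 8 bp in the 5' UTR. The relative signal was 0.206, 0.848 and 0.445, which are ranks 21458, 3575 and 7385 of replicates 1, 2 and 3. COX4 was in the strongest set of replicate 2 and of no other replicate.

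In the F1 part of ATP synthase, the alpha subunit stood well above the rest. blw (FBgn0011211, bellwether), which encodes that subunit, had a signal of 497 at chr2R:22798778-22799189 (rank 348), with the summit at -73 bp and no other TSS within 500 bp. Its relative signal was 2.99, 2.97 and 3.21 in replicates 1, 2 and 3 (3.06 ± 0.136). sun (FBgn0014391, stunted), the epsilon subunit, had 210 at chrX:15849019-15849468 with the summit at 14 bp, in its 5' UTR. The relative signal of sun was 1.26, 1.41 and 1.21 (1.29 ± 0.104). ATPsynbeta, the catalytic subunit that pairs with alpha, had 151 and a relative signal of 0.889 ± 0.182, and ATPsyngamma, the rotating shaft, had 140 and 0.886 ± 0.169 (SD, n = 3). A further optimal peak of ATPsyngamma, with a signal of 125, had its summit 2 bp from another TSS of the gene. The partners alpha and beta, which alternate in the F1 head, thus differed in all 3 replicates without overlap.

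ATPsyndelta and ATPsynepsilonL had the lowest pooled signals of the 37 genes. ATPsyndelta (FBgn0028342), a subunit of the central stalk, had 33.8 (rank 15424) with the summit at 139 bp in its own intron, and no region within 500 bp in any replicate. The nearest optimal summit was 52916 bp away. ATPsynepsilonL (FBgn0051477), named as like the epsilon subunit, had 34.0 (rank 15288). The replicates gave relative signals of 0.445, 0.216 and 0.156, with the replicate summits at -77, -267 and 485 bp, so these are not the same region. Both genes lie far down the pooled list, among regions that the authors' list gives as peaks and background without separating them.

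The stalk, membrane part and ring held 3 of the 7 strongest peaks. ATPsynC (FBgn0039830), the subunit of the rotating c ring, had a signal of 519 at chr3R:31219523-31219819 (rank 321), with the summit at -41 bp and no other TSS within 500 bp. Its relative signal was 3.51, 3.14 and 2.79 in replicates 1, 2 and 3 (3.14 ± 0.360). ATPsynE (FBgn0038224), the e subunit of the membrane part, had 466 at chr3R:14326862-14327156 with the summit at -47 bp from its nearest TSS, shared with Afti. The relative signal of ATPsynE was 3.03, 2.88 and 2.59 (2.84 ± 0.223), overlapping that of ATPsynC. ATPsynF, the f subunit, had 416 and 2.50 ± 0.160, with CG3548 beside it.

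The remaining subunits of this group were weaker. ATPsynO, which links the peripheral stalk to the F1 head, had a signal of 208 (1.22 ± 0.259), and ATPsynB, the stalk's b subunit, had 203 (1.23 ± 0.222). ATPsynD, the d subunit, had 189 (1.07 ± 0.331), with the TSS of mRpL55 47 bp from the summit and its own at 48 bp. ATPsynCF6, coupling factor 6, which shares its peak with Sec13, had 120. Its relative signal was 0.951, 1.09 and 0.424 in replicates 1, 2 and 3, the largest coefficient of variation of the 30 peaks (42.9%). ATPsynG (FBgn0010612), the g subunit of the membrane part, had no optimal peak. Its pooled signal was 47.5 at 13 bp, in its 5' UTR, with relative signals of 0.630, 0.326 and 0.383, the replicate 3 summit being at -446 bp. It was in the strongest set of replicate 1 alone.

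**Figure D2:**
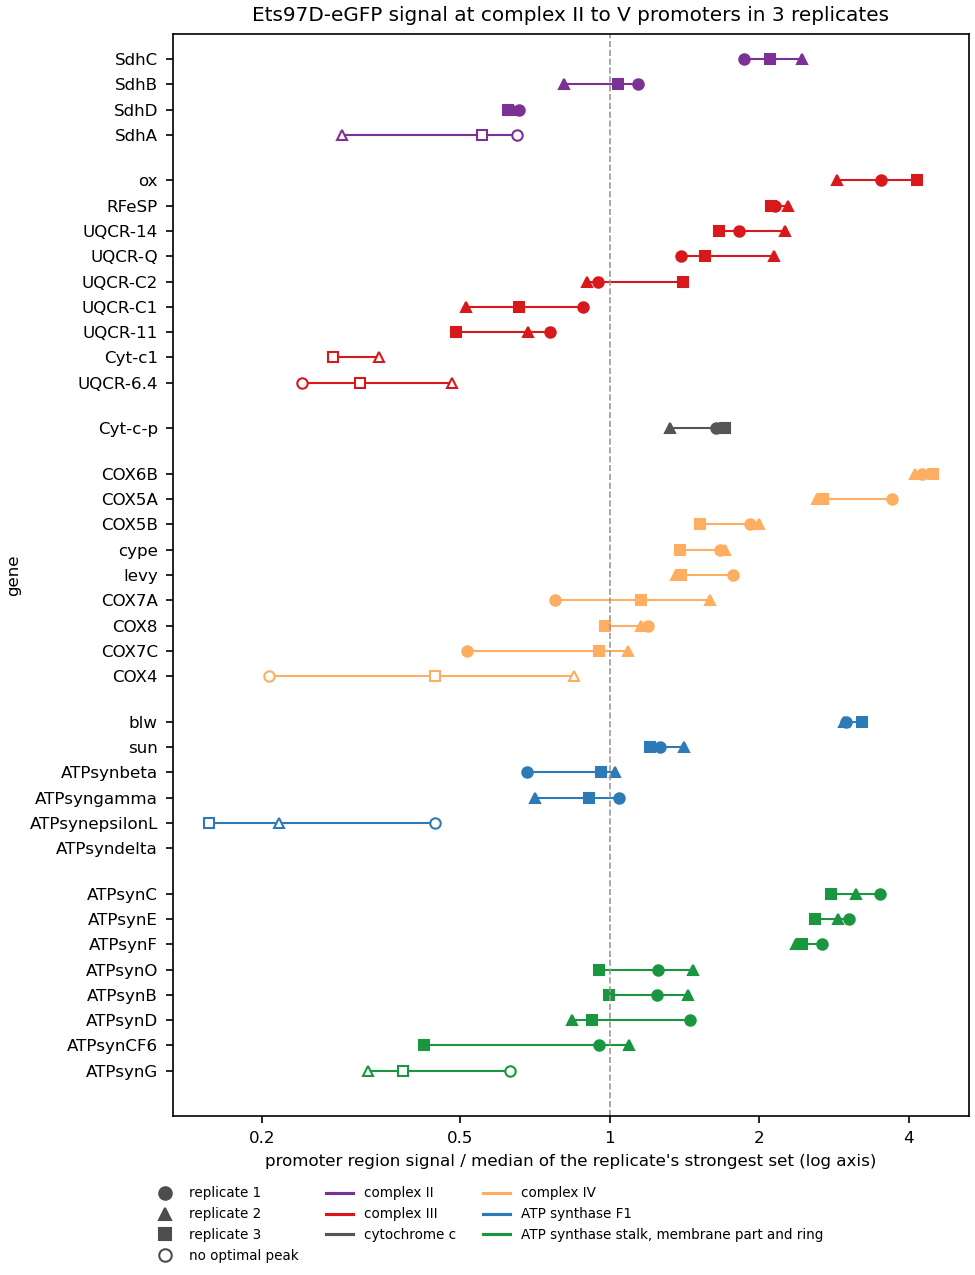
Each row is a gene, and its 3 points give the relative signal of its strongest promoter region in replicates 1, 2 and 3 on a log axis; the dashed line at 1 is the median of each replicate's strongest set. Filled symbols are genes with an optimal promoter peak and open symbols those without. COX6B has the highest value in each replicate, ATPsyndelta has no region in any replicate and Cyt-c1 has none in replicate 1.

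The order of the genes by mean relative signal holds only in broad steps. Among the 30 genes with an optimal peak, the ranges over the replicates of 28 of 29 neighbouring pairs overlapped. ATPsynF and RFeSP were the 1 pair apart. Of the 37 genes, 26 were in the strongest set of all 3 replicates. UQCR-C1, UQCR-11, COX7C and ATPsynCF6 were in 2, SdhA, COX4 and ATPsynG in 1, and UQCR-6.4, Cyt-c1, ATPsyndelta and ATPsynepsilonL in 0. Across the 30 genes, Spearman's rho between replicates was 0.873 for 1 and 2, 0.877 for 1 and 3, and 0.892 for 2 and 3. Across 5043 genes with a region in each replicate it was 0.839, 0.845 and 0.818. These are descriptions over genes that share each replicate's library and its control. All of these genes have a peak that passed IDR on the same replicates, so agreement between replicates is partly built in. The median coefficient of variation was 16.5% at the 30 genes, against 16.2% at the 5043.

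Summits of most members were a short way upstream of the nearest TSS of their gene. The median position over the 30 genes was -43 bp (negative positions are upstream), with quartiles of -68.5 and -17.75 bp. Over all 5097 genes with an optimal promoter peak it was -75 bp, with quartiles of -169 and -30 bp. The replicates' own strongest-set summits gave medians of -51, -45.5 and -33.5 bp for the listed genes (-43.3 ± 8.95, SD, n = 3). They gave -77, -79 and -72 bp for all genes (-76.0 ± 3.61, SD, n = 3), and the 2 sets of medians did not overlap. The summit was upstream of the gene's nearest TSS at 27 of 30 genes (90%), against 88.1% of all genes. It was more than 250 bp away at 4 (13.3%), against 15.1%. Those 4 are SdhC, COX5B, cype and COX7C. At UQCR-C2, UQCR-Q, COX5A, ATPsynbeta and ATPsynE the summit was upstream of the nearest TSS but inside the gene's own 5' UTR.

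Many of the peaks could not be given to a single gene. At 18 of the 30 genes (60%) another protein-coding gene had a TSS within 500 bp of the summit, against 58.3% of all genes with a peak. The subunit's own TSS was the nearest at 22 of 30 (73.3%), against 71.6%. The 8 others are SdhC, ox, COX5B, COX6B, COX7C, cype, levy and ATPsynD. ATPsynbeta and ATPsyngamma, nearest to their own peaks, shared them with CG11076 and yata. The summit lay in intergenic sequence at 19 of 30 genes (63.3%), against 64.4% of 4118 optimal promoter peaks, and in a 5' UTR at 9 (30%), against 20.5%. Of these 5' UTRs, the one at ox belonged to Dgkepsilon and the one at levy to wmd. The UQCR-14 summit lay in the 3' UTR of CG32576.

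**Figure D3:**
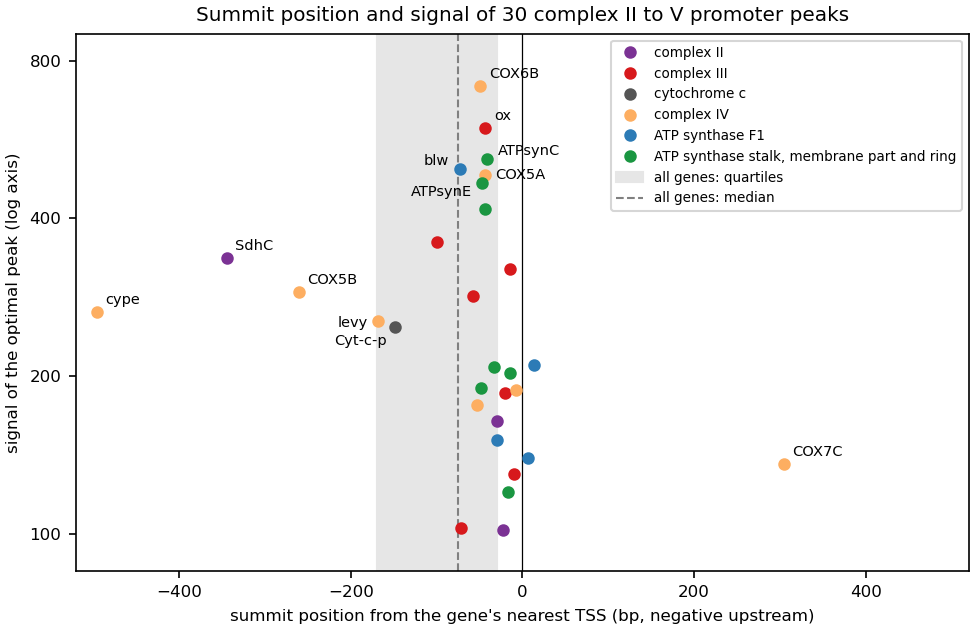
Each point is 1 of the 30 genes, placed by the distance of its summit from its nearest TSS in bp (negative is upstream) and by the signal of its optimal peak on a log axis. Grey marks the quartiles (-169 and -30 bp) and the dashed line the median (-75 bp) of all genes with an optimal promoter peak. The points gather close to the start site, with SdhC, COX5B and cype far upstream and COX7C downstream.

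Under the summits, the BEAF-32 core, the shortest word of the panel searched, was the most frequent. The ETS words of the GABP type were at none of the 30, and both were rare in all optimal promoter peaks. Each word was searched for in both directions, up to 50 bp either side of the summit. The BEAF-32 core CGATA was at 15 of 30 genes (50%), against 37.7% of the 4118 optimal promoter peaks. The DRE TATCGATA was at 4 (13.3%), the SdhC, UQCR-14, COX7A and ATPsynE peaks printed above, against 9.91%. Motif 1 GGTCACAC was at SdhB and UQCR-C2 (6.67%), against 7.72%. The E-box CAGCTG of the Ohler set was at SdhD, UQCR-C1, UQCR-C2 and COX7A (13.3%), against 9.08%, and TATAAA at COX5A and ATPsynO (6.67%), against 12.9%. Every DRE also counts as a BEAF-32 core. With 100 bp either side of the summit, CGATA was at 17 of 30, against 52.1%, and the DRE at 4, against 15.0%.

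Neither CCGGAAG nor CCGGAA, the ETS words of the GABP type, was within 50 bp of the 30 summits, against 0.801% and 3.62% of the 4118 peaks. With shares this low, 0 of 30 is near the share of all promoter peaks. The shorter GGAA was at 18 of 30 (60%), against 51.2%, a word added after the data were seen. The nuclear respiratory gene element (NRG element), a longer word described at mitochondrial genes of insects, was in the spelling searched also at 0, against 0.0729%. The other 6 words searched were likewise at 0 of 30, and each was rare in the 4118 peaks too. There the E-box CACGTG was at 1.38%, the AP-1 word TGACTCA at 1.12% and the GAGA factor word GAGAGAG at 1.24%. The early embryonic Zelda word CAGGTAG was at 0.364%, the word GCGCATGC at 0.291% and the word CTCTTTC at 1.55%. At 11 of the 30 genes (36.7%), among them RFeSP, Cyt-c-p, blw and sun, none of the 14 words of the panel was present, against 38.3% of the 4118 peaks. The 15 genes with CGATA had a median signal of 289 and the 15 without it 210, given here without a test.

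**Figure D4:**
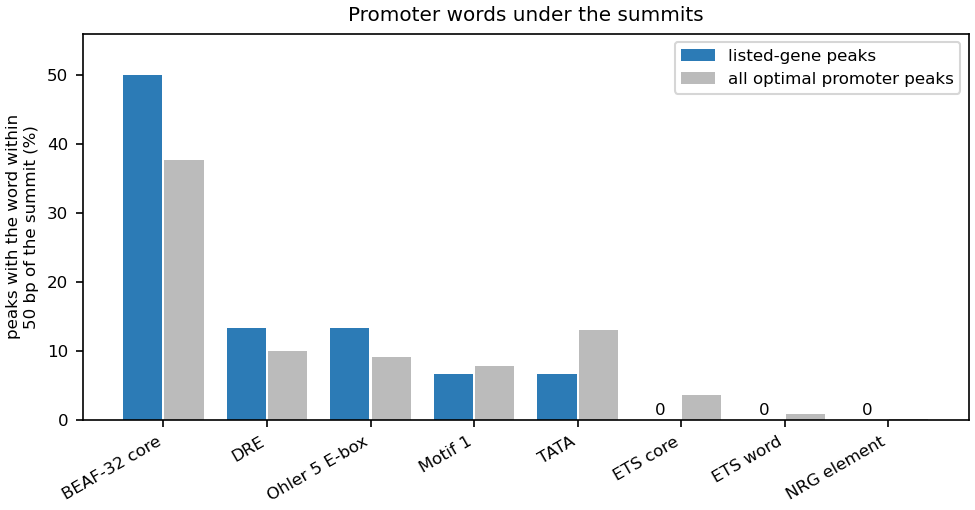
Bars give the percentage of peaks with each word within 50 bp of the summit, blue for the 30 peaks of the listed genes and grey for all 4118 optimal promoter peaks. The BEAF-32 core is at 50% and 37.7%. Both ETS words and the NRG element are at 0 in the listed genes and at 3.62% or less in the 4118 peaks.

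A longer window, set by the start site rather than the summit, ran from 250 bp upstream to 50 bp downstream. It held more of these words, among all genes with a peak too. The DRE printed for SdhC, at -319 bp, lies outside this window. Motif 1 was in this window at 11 of the 37 genes (29.7%) and at 9 of the 30 with a peak (30%). It was in 16.7% of the 5097 genes with a peak and in 6.71% of 19276 TSS windows. The 11 include ox, RFeSP, Cyt-c-p, COX5B and ATPsynC, and also UQCR-6.4 and COX4, which have no optimal peak. CGATA was in the window of 26 of the 37 (70.3%), against 45.6% of TSS windows, and in that of all 7 genes without a peak. Among genes with a peak it was at 63.3% of the listed genes, against 62.6% of all. The DRE was at 6 of the 37 (16.2%), against 7.98% of TSS windows, COX4 among them. Among genes with a peak it was at 16.7% of the listed genes, against 18.8% of all. CCGGAA was at SdhA and UQCR-C1 (5.41%), against 6.79% of TSS windows. Among genes with a peak it was at 1 of 30 (3.33%), against 7.04% of all. The COX4 promoter, printed above, held the DRE and Motif 1 and had no optimal peak.

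Some of the assembly factor genes had an optimal promoter peak, not always nearest to their own start. Peaks were present at Ttc19, a complex III factor, with a signal of 394, and at Sirup, a complex II factor, with 247. Coa7 had 229 and Cchl, which attaches haem to cytochrome c, had 212 at a start shared with ND-42 of complex I. Ccdc56 had 177, the fly Cox20 gene l(3)87Df 165, the copper chaperone Cox17 150, Sdhaf3 109 and Coa8 97.4. The summits at Ttc19, Coa7 and l(3)87Df lay nearer to another gene's TSS. Sharing these peaks were Acn with Ttc19, Rab21 with Coa7, and CG46280 and CG46281 with l(3)87Df. Ccdc56 shared its peak with CG11658 and mtTFB1. Surf1, Scox, Cox10, Cox11, Bcs1 and Uqcc1 had no optimal promoter peak. The median signal was 229 at the 30 subunit genes with a peak, against 177 at these 9 assembly factor genes and 151 at the 24 of complex I.

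Few of the paralogs had a pooled region at the promoter. Of 19, 14 (73.7%) had no pooled region within 500 bp of a TSS, against 41.0% of all protein-coding genes. Among them, ATPsynCF6L, ATPsynbetaL, COX6CL, COX7AL2 and Cyt-c1L had a region in a single replicate, with relative signals of 0.163 to 0.237. COX7AL had a pooled signal of 75.5, COX4L 67.2, UQCR-6.4L 48.96 and SdhBL 23.1, all outside the optimal set. Cyt-c-d was the 1 with an optimal peak. Several such paralogs in flies are known for expression in the testis.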

How the data were processed

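Regions were the authors' deposited narrowPeak lists on dm6; those on dm3 were not used. Per the file headers (the text deposited with each sample), each replicate's list of peaks and background came from its alignment and a control, the pooled list from all replicates, and the optimal set from these by IDR. The deposited signal of column 7 is the authors' value of ChIP against control, and its scale is not stated. The deposited −log10 q value of column 9 is the authors' own and served only to describe regions; it reached at most 4.00. Aligner, peak caller, their versions and the IDR threshold were not given in the sources used here. Chromatin was sonicated to a size range of 200 to 800, per the labels, which give no unit. The lists hold no read counts, so depth is unknown.

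Summits are start plus offset, 1-based. A gene's peak was the one of highest signal with its summit within 500 bp of a TSS of a protein-coding transcript, on 7 chromosome arms (Ensembl release 115 models, NCBI Release 6 sequence). Genes without an optimal peak were described by their pooled region. A summit inside several transcripts counted as 5' UTR before coding exon, then as 3' UTR, then as intron. No sample groups could be compared, so no p-value was computed. Counts and medians of the 37 genes were set beside those of all genes or peaks, and differences beside the SD of 3 replicates; whether these were separate collections is not stated beyond the word biological, so the SD may be partly technical.

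The members, the word panel and the other gene lists were chosen with earlier results of these data known. Of 37 assembly factor names, 15 genes matched by symbol or unique synonym. Values in every replicate are given for the 2 strongest members of each group, every member without an optimal peak and the 2 nearest its end. Sequences were shown for summits with the DRE, Motif 1, CCGGAA or the NRG element, except on chromosome arm 2R, so the SdhB summit with Motif 1 is not shown. Alternatives varied the distance (250 and 1000 bp), the assignment of summits, the peak set, the word window (25 and 100 bp) and the replicates used. Peak assignment and word search were tested on simulated data. Python 3.11.15, NumPy 2.4.6, pandas 2.3.3 and matplotlib 3.10.9 were used.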

Additional observations from a re-analysis of the deposited data

How the results depend on the processing

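The count of listed genes with an optimal promoter peak stayed within 1.5 times of 30 under every alternative run. It was 26 with 250 bp (against 32.0% of all genes), 31 with 1000 bp (39.8%), 30 with any overlap (38.1%), 23 when a summit counted for the gene of its nearest TSS alone (against 27.5% of all genes) and 23 with the 50% of peaks of highest signal (against 22.1%). With optimal peaks that had a strongest-set summit in all 3 replicates it was 26 (against 29.3%). Leaving 1 replicate in turn out of this condition gave 27 to 28 (against 30.9% to 31.4%). The count of genes in the strongest set of both remaining replicates was also 27 to 28, against 31.4% to 32.3% of all genes. The mean of the median relative signals without 1 replicate in turn was 1.39 to 1.43. The median signal was 205 with the peak nearest to a TSS (all genes: 177), and the median position was -31.5 bp from the most upstream TSS (all genes: -62 bp) and -33.5 bp with the summits of replicate 3. With full replicate lists the mean of the median ranks was 2056 in place of 1593. Word counts followed the window. Within 25 bp of the summit there were 1 DRE, 1 Motif 1 and 8 BEAF-32 cores, against 4.61%, 3.91% and 22.9% of the 4118 promoter peaks. Within 100 bp there were 17 BEAF-32 cores and 4 DREs, against 52.1% and 15.0%. The same window held 5 Motif 1 and 1 CCGGAA, against 13.0% and 6.36%. From 250 bp upstream to 50 bp downstream of the TSS there were 9 and 1, against 16.7% and 7.04% of all genes with a peak. With GGAA, chosen after seeing the data, the ETS count was 18, against 51.2% of the promoter peaks. The cause of these shifts was not tested beyond the change of window. No paired analysis was possible because the series has 1 group. Replicate signals of single genes rest on 3 values, depth is unknown and controls were not analysed here, so weak regions near the end of a list cannot be told from background.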
